A study of Mus musculus with 14 samples.

Results

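Macrophage and dendritic cell genes were examined in mouse colon as a list of 39 genes chosen by name. All 39 were found once each among the 21898 genes of the deposited table, and all 39 were among the 14070 genes with enough counts to be tested. The 14 samples are colon RNA of wild-type mice that were gavaged (dosed into the stomach), 7 with phosphate-buffered saline (PBS) and 7 with Bacteroides thetaiotaomicron, an anaerobe of the normal gut flora. The labels give no strain, age, sex, dose or time, carry the same entries for treatment and batch in every sample, and do not say whether each sample came from 1 animal. Epcam, Vil1 and the other 10 epithelial markers and all 8 smooth muscle markers were detected. Of 9 marker genes of tissues other than colon, Umod and Sftpc had no count in any sample. Another 5 were too low to test, among them the pancreatic gene Prss2, and Alb and Cela1 were tested. Cela1, a pancreatic elastase gene, had 44.6 to 309 CPM (counts per sample scaled to library size) with PBS and 60.1 to 191 CPM with the bacterium. Total counts were 13150140 to 16781708 per sample.

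Macrophages and dendritic cells are the phagocytes of the gut wall. In the colon most macrophages are replaced from blood monocytes and depend on the receptor encoded by Csf1r; they take up bacteria and dying cells without strong inflammation. Dendritic cells depend on the receptor encoded by Flt3, carry antigen to lymph nodes and prime T cells, and many of them display CD11c, the integrin chain encoded by Itgax. Many genes of both lineages are switched on by the transcription factor PU.1, which Spi1 encodes and which binds purine-rich DNA with the core GAGGAA.

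The 3 genes that passed the test were Cytip, Mpeg1 and Itgax, and their upstream sequences are shown because PU.1 and its partners act on such regions. Mpeg1 (ENSMUSG00000046805) lies on chromosome 19 at 12460779 to 12465283 on the plus strand of GRCm38, Itgax (ENSMUSG00000030789) on chromosome 7 at 128129547 to 128150657 on the plus strand, and Cytip (ENSMUSG00000026832) on the minus strand of chromosome 2 at 58129137 to 58195532, all protein-coding in GENCODE M21. Each count is for a whole gene, exons not being listed separately. The sequences are from RefSeq on GRCm38.p6, read 5′ to 3′ on the strand of the gene. Capitals mark an AP-1 site (TGANTCA) in Itgax and a PU box (GAGGAA) in Cytip. For Mpeg1 and Itgax the 250 bases before the RefSeq start are given; this start differs from the GENCODE start, so the Mpeg1 window ends before the GENCODE gene and the Itgax window ends 3 bases inside it. For Cytip 30 bases around the PU box are given, since the window lies in an exon of a longer transcript.

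Mpeg1, chr19:12460520-12460769: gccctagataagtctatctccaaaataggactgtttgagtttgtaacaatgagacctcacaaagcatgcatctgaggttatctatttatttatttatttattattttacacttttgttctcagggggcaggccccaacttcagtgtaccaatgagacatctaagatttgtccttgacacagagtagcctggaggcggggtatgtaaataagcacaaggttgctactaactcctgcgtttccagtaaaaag

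Itgax, chr7:128129300-128129549: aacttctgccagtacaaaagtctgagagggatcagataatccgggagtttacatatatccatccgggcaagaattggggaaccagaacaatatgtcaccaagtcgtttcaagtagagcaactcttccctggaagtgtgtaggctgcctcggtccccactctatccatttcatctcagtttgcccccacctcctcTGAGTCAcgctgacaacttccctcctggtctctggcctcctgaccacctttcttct

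Cytip, chr2:58160303-58160332: ggctgtttgaggGAGGAAaagtacactgat

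A search of both strands of the 250 bases before each start covered 29 of the 39 genes, with 32 windows. The PU box GAGGAA was present in 15 genes and in 16 of the 32 windows, against 23.3% of all 32851 windows in the table. The other motifs were the longer PU.1 site GAGGAAGT, which contains the PU box, the core GAANNGAAA of the interferon-stimulated element, the C/EBP motif TTGCNNAA and the AP-1 motif. They were present in 3.12%, 9.38%, 18.8% and 12.5% of the 32 windows (1, 3, 6 and 4 windows), against 2.44%, 6.31%, 9.56% and 6.75% of all windows. Fcgr4 held the longer PU.1 site, and Cst3, Ctss and Timd4 the interferon-stimulated core. Cytip also held a C/EBP match, while the Mpeg1 window held none of the motifs and the Itgax window the AP-1 match alone. These matches describe letters in a window and were not tested for binding.

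Levels per gene length, given as the deposited FPKM, spanned a wide range. Ctss, which encodes the lysosomal protease cathepsin S, had a median of 296 FPKM over the 14 samples, followed by the lysozyme gene Lyz2 at 244 FPKM and Cst3, whose product inhibits cathepsins and is secreted by many cell types, at 148 FPKM. Mpeg1, which encodes the pore-forming protein perforin-2 of macrophages, was next at 33.0 FPKM. The lowest were Lilrb4a at 0.469 FPKM and Siglech, a receptor gene of plasmacytoid dendritic cells, at 0.242 FPKM. Raw counts reflected this: Ctss had 4335 to 8114 reads per sample and Siglech 5 to 47.

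**Figure D1:**
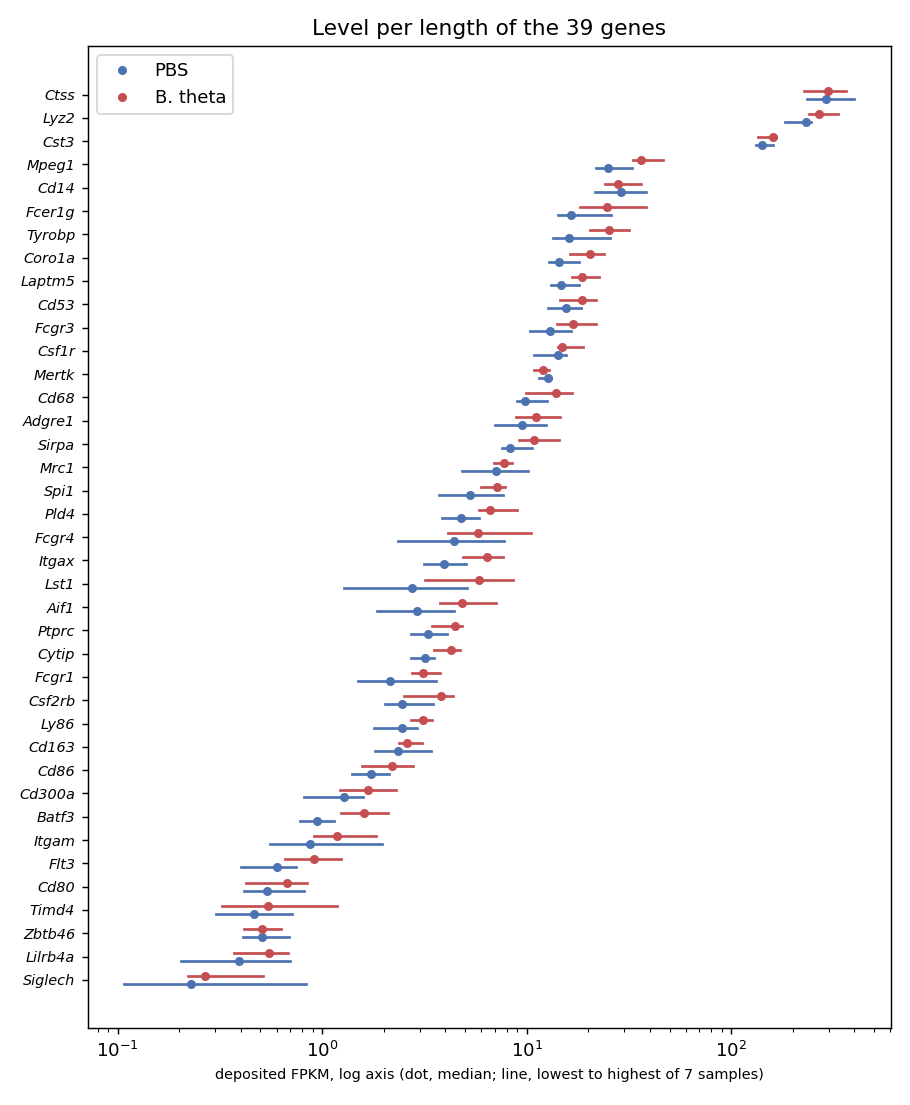
Deposited FPKM of each gene on a log axis, with the median as a dot and the lowest to highest of 7 samples as a line, PBS in blue and B. thetaiotaomicron in red. Ctss, Lyz2 and Cst3 stand above the rest, and Siglech is the lowest at 0.242 FPKM over all samples.

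The comparison asked which of these genes differed after the bacterium. Fitted values were higher after the bacterium for 35 of the 39 genes, against 46.2% of all genes tested, and the median log2 fold change was 0.36 against -0.013 over all genes tested. Cytip, Mpeg1 and Itgax rose (edgeR, adjusted p = 0.0378 for each), which is 7.69% of the list, against 0.156% of all genes called higher. None was called lower, against 0.0924% of all genes. At an unadjusted p under 0.05, 26 of the 39 were higher and 0 lower, where 7.98% and 7.26% of all genes were. DESeq2, a second count test, called 16 of the 39 higher and 0 lower, against 1.93% and 1.13% of all genes. The groups did not overlap for Cytip, Mpeg1 and Batf3, all higher, against 0.206% of all genes higher and 0.334% lower without overlap. In whole tissue, more cells of a type and more RNA per cell cannot be told apart, nor fewer cells and less RNA per cell.

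The 3 calls depended on single libraries. Without PBS sample 2 the number called was 10 (Csf2rb, Fcgr1, Laptm5, Pld4, Ptprc, Sirpa and Tyrobp in addition). Without PBS sample 4 it was 2 (Itgax at adjusted p = 0.0562), without B. thetaiotaomicron sample 3 it was 1 (Cytip at 0.0521 and Mpeg1 at 0.0526), and without B. thetaiotaomicron sample 5 it was 3. Leaving out PBS sample 1, 3, 5, 6 or 7 or B. thetaiotaomicron sample 1, 2, 4, 6 or 7 left 0, and in those fits the adjusted p was 0.0506 to 0.0993 for Cytip, 0.0565 to 0.109 for Mpeg1 and 0.0524 to 0.109 for Itgax. Their log2 fold changes were 0.38 to 0.46, 0.46 to 0.56 and 0.56 to 0.67 over the 14 fits. PBS samples 1, 3 and 5 and B. thetaiotaomicron sample 3 stood apart on the first principal component of all genes. Their mean log2 CPM of the distal hindgut genes Hoxb13 and Hoxd13 was 5.79 to 8.32, against -2.25 to 5.86 in the other 10 libraries. Without these 4 libraries 0 of the 39 passed (smallest adjusted p over all genes 0.0855), 38 of the 39 had positive fold changes and the median was 0.31.

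**Figure D2:**
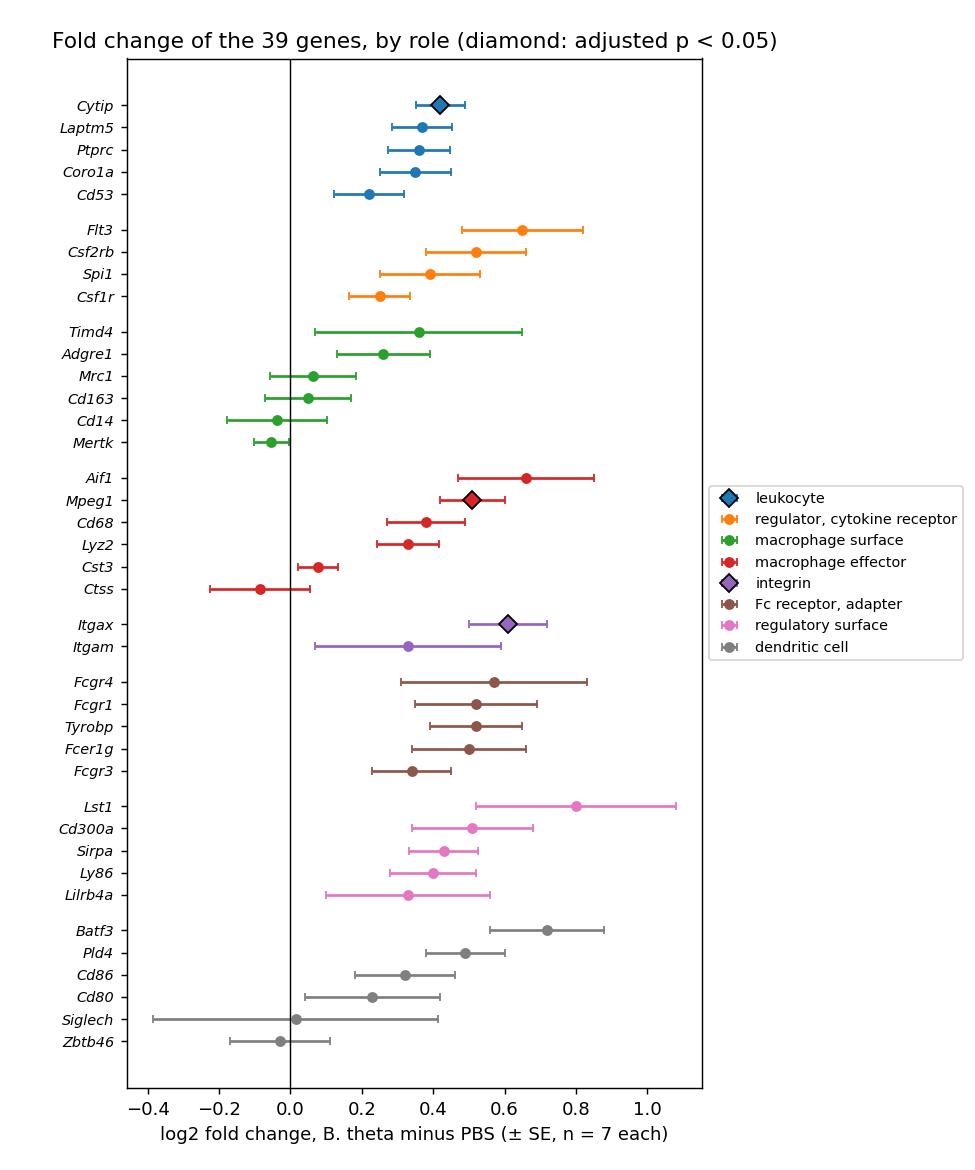
Log2 fold change of each gene, B. thetaiotaomicron minus PBS, with its SE (n = 7 each), grouped by role. Diamonds mark Cytip, Mpeg1 and Itgax, and the macrophage surface genes Mertk, Cd14, Cd163 and Mrc1 lie close to 0.

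Among genes of all or most leukocytes, Cytip led. It encodes a scaffold protein that binds cytohesins and is found in lymphocytes and dendritic cells. In PBS samples 1 to 7 it had 18.8, 21.6, 21.3, 20.7, 21.1, 23.7 and 21.3 CPM. In B. thetaiotaomicron samples 1 to 7 it had 27.4, 24.2, 32.7, 29.2, 29.2, 27.0 and 28.8 CPM. Every sample given the bacterium was above every PBS sample, and the log2 fold change was 0.42 ± 0.068 (SE). Coro1a, which encodes the actin-binding protein coronin 1A, had 35.4 to 52.6 CPM (median 40.1) with PBS and 44.6 to 65.4 CPM (median 55.8) with the bacterium. Its groups overlapped, and its log2 fold change of 0.35 ± 0.10 (SE) had an adjusted p of 0.126. Ptprc, which encodes the leukocyte surface phosphatase CD45, and Laptm5, a lysosomal membrane protein gene of blood cells, had log2 fold changes of 0.36 ± 0.087 (SE) and 0.37 ± 0.084 (SE), with adjusted p of 0.0814 and 0.0752. Cd53, a leukocyte tetraspanin gene, had 0.22 ± 0.098 (SE).

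Receptors and regulators of the lineage all had positive log2 fold changes, and none passed the test. Flt3 had the smallest p of these, with 2.49 to 4.83 CPM (median 3.84) with PBS and 4.0 to 7.57 CPM (median 5.74) with the bacterium. Of the samples given the bacterium, 6 lay above every PBS sample, and the log2 fold change was 0.65 ± 0.17 (SE; adjusted p = 0.0986). Csf1r, with the highest FPKM of the group, had 62.4 to 89.2 CPM (median 81.5) with PBS and 83.1 to 108 CPM (median 85.4) with the bacterium, so its groups overlapped more (0.25 ± 0.086, SE; adjusted p = 0.176). Csf2rb encodes the shared chain of the receptors for interleukin 3, interleukin 5 and granulocyte-macrophage colony-stimulating factor, and had 0.52 ± 0.14 (SE). It has a close mouse paralog, and its value depends on how shared reads were counted. Spi1 had 0.39 ± 0.14 (SE).

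None of the 6 genes grouped here as macrophage surface genes passed the test. None of these 6 reached an unadjusted p under 0.05, and their median log2 fold change was 0.057. This holds for the 6 genes and not for all surface receptors of macrophages. Csf1r, Sirpa and the Fc receptor genes were placed in other sets and had positive log2 fold changes. Adgre1, which encodes the macrophage marker F4/80, had the smallest p, with 23.8 to 40.1 CPM (median 30) with PBS and 29.5 to 46.6 CPM (median 35.8) with the bacterium (0.26 ± 0.13, SE; adjusted p = 0.341). Cd14, the co-receptor for lipopolysaccharide, had 36.5 to 68.6 CPM (median 49.8) with PBS and 41.8 to 64.0 CPM (median 47.7) with the bacterium. Its highest samples were PBS samples 1 and 5 and B. thetaiotaomicron sample 3, which are among the 4 libraries that stood apart, and its log2 fold change was -0.038 ± 0.14 (SE). Mertk, a receptor for dying cells that is also expressed outside macrophages, had 49.4 to 58.1 CPM (median 55.3) with PBS and 48.1 to 54.8 CPM (median 52.9) with the bacterium, a log2 fold change of -0.053 ± 0.05 (SE). All 7 samples given the bacterium lay below the PBS median for Mertk, within the PBS range in 6 of them. Cd163, a scavenger receptor gene, Mrc1, which encodes the mannose receptor, and Timd4, which encodes a phosphatidylserine receptor of resident macrophages, had 0.049 ± 0.12, 0.064 ± 0.12 and 0.36 ± 0.29 (SE).

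**Figure D3:**
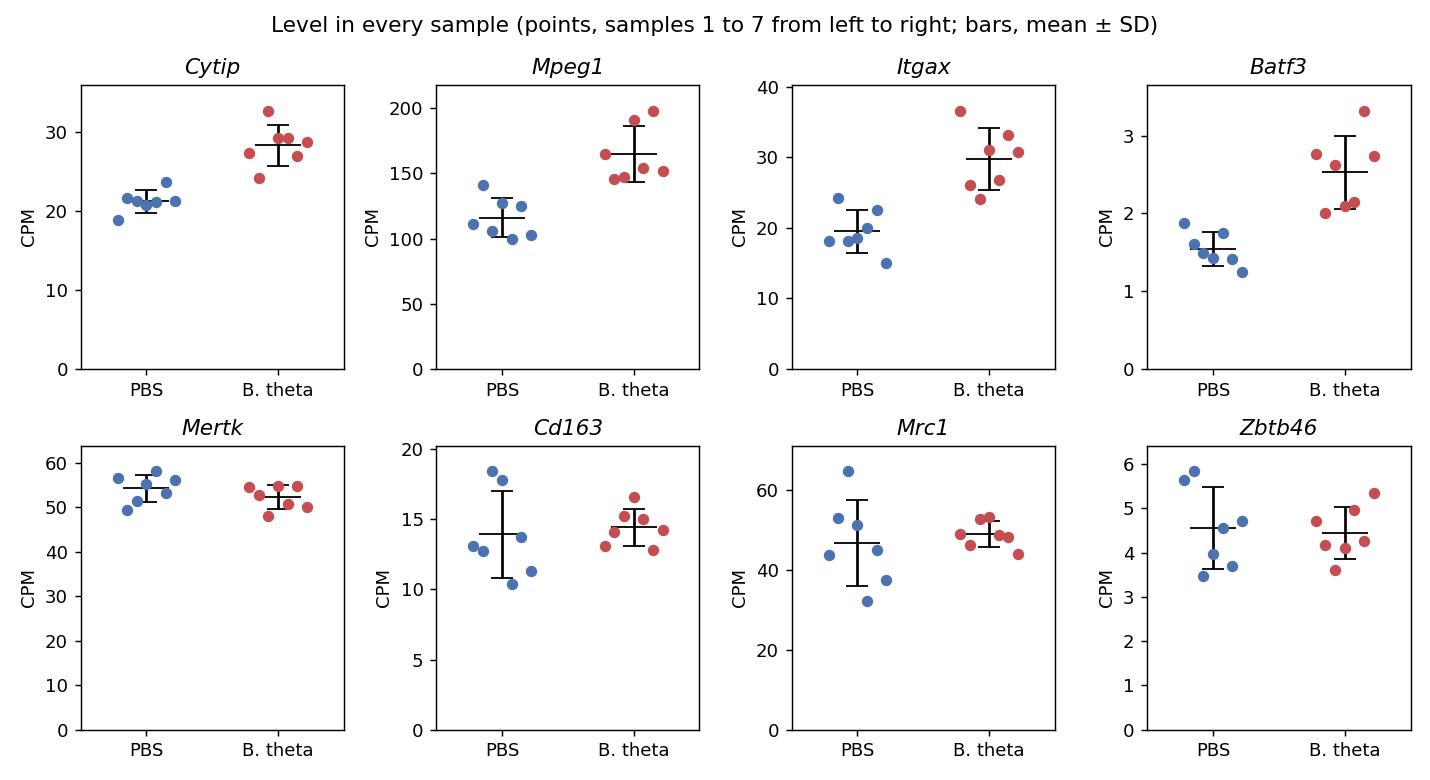
CPM in each sample (points, samples 1 to 7 from left to right) with the group mean and SD, axes starting at 0. Cytip, Mpeg1 and Batf3 do not overlap between groups and Itgax overlaps in 1 sample of each group, while Mertk, Cd163, Mrc1 and Zbtb46 overlap broadly.

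Of the 6 effector genes of macrophages, 5 had positive log2 fold changes and Mpeg1 passed the test. Mpeg1 had 111, 141, 106, 127, 99.5, 125 and 103 CPM in PBS samples 1 to 7 and 165, 146, 147, 191, 154, 198 and 152 CPM in B. thetaiotaomicron samples 1 to 7. The groups did not overlap, with PBS sample 2 close to the lowest sample given the bacterium, and Mpeg1 rose by 0.51 ± 0.092 (SE) on the log2 scale. Aif1, which encodes the actin-binding protein IBA1, had the largest fold of the group at 0.66 ± 0.19 (SE), from a mean of 4.89 to 7.68 CPM (adjusted p = 0.132). Cd68, a lysosomal glycoprotein gene, and Lyz2 had 0.38 ± 0.11 and 0.33 ± 0.086 (SE), with adjusted p of 0.122 and 0.102. Lyz2 has a paralog, Lyz1, so its value depends on how shared reads were counted. Ctss, the most abundant member, had 312 to 568 CPM (median 392) with PBS and 311 to 506 CPM (median 400) with the bacterium. As with Cd14, its highest samples were PBS samples 5 and 1 and B. thetaiotaomicron sample 3, and its log2 fold change was -0.085 ± 0.14 (SE). Cst3 had 0.077 ± 0.056 (SE).

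Of the integrin chains, Itgax rose. It had 18.2, 24.2, 18.1, 18.5, 20, 22.5 and 15 CPM in PBS samples 1 to 7 and 36.6, 26.1, 24.1, 31.1, 26.8, 33.2 and 30.7 CPM in B. thetaiotaomicron samples 1 to 7. PBS sample 2 and B. thetaiotaomicron sample 3 were the overlapping pair, at 24.2 and 24.1 CPM, and the log2 fold change was 0.61 ± 0.11 (SE). Itgam, which encodes CD11b of macrophages, monocytes and neutrophils, had 2.94 to 9.76 CPM (median 4.35) with PBS and 4.52 to 9.10 CPM (median 5.85) with the bacterium, with PBS sample 2 the highest of all (0.33 ± 0.26, SE). Itgam shares exon bases with another annotated gene on the same strand, so its value depends on how shared reads were counted. The log2 ratio of Itgax to Itgam averaged 2.07 ± 0.53 (SD) in the 7 PBS samples and 2.29 ± 0.32 (SD) in the 7 given the bacterium. The difference of 0.22 did not pass a two-sided exact permutation test (p = 0.366, and 0.642 after Benjamini-Hochberg adjustment over the 42 ratios computed).

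Activating Fc receptors bind antibody-coated particles and signal through the adapter chain that Fcer1g encodes. Tyrobp, which encodes an adapter of other receptors, was placed in the same set. All 5 genes of this set had positive log2 fold changes and an unadjusted p under 0.05, and none passed after adjustment. Tyrobp (DAP12) had 9.24 to 17 CPM (median 10.7) with PBS and 13.9 to 20.9 CPM (median 16.7) with the bacterium. Only PBS sample 2 reached into the range of the other group, and the log2 fold change was 0.52 ± 0.13 (SE; adjusted p = 0.0969). Fcer1g, the common gamma chain, had 12.4 to 22.5 CPM (median 15.1) with PBS and 16.3 to 33.1 CPM (median 21.5) with the bacterium (0.50 ± 0.16, SE; adjusted p = 0.16). Fcgr1, Fcgr3 and Fcgr4, the receptor genes themselves, had 0.52 ± 0.17, 0.34 ± 0.11 and 0.57 ± 0.26 (SE). Fcgr4 relative to Fcgr1 differed between groups by 0.029 on the log2 scale (exact permutation p = 0.878).

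Regulatory surface and accessory genes all had positive log2 fold changes as well, from 0.33 to 0.80, and none passed. Sirpa encodes an inhibitory receptor that reads CD47 on other cells and marks macrophages and some dendritic cells. It had 36.9 to 51.9 CPM (median 40.0) with PBS and 46.1 to 69.9 CPM (median 53.6) with the bacterium (0.43 ± 0.097, SE; adjusted p = 0.0752). Again only PBS sample 2 lay inside the other group's range. Lst1, a small membrane protein gene of leukocytes, had the largest fitted fold of the list, 0.80 ± 0.28 (SE), on 7 to 52 reads per sample. Cd300a, an inhibitory receptor gene, Ly86, which encodes the MD-1 partner of the receptor RP105, and Lilrb4a, an inhibitory receptor gene, had 0.51 ± 0.17, 0.40 ± 0.12 and 0.33 ± 0.23 (SE). Lilrb4a has a near-identical neighbour and shares exons with another annotated gene, so its value is uncertain.

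Of the 6 genes grouped here as dendritic cell genes none passed the test, and 5 had positive log2 fold changes. DESeq2 called Batf3 and Pld4 higher (adjusted p = 0.0136 and 0.00529). This holds for the 6 genes and not for all genes of dendritic cells. Itgax, Cytip and Flt3 were placed in other sets, and Itgax and Cytip passed. Batf3, a transcription factor gene needed for type 1 conventional dendritic cells and also expressed in lymphocytes, had 1.88, 1.60, 1.49, 1.43, 1.75, 1.41 and 1.24 CPM in PBS samples 1 to 7 and 2.76, 2.01, 2.62, 2.09, 2.15, 3.32 and 2.74 CPM in B. thetaiotaomicron samples 1 to 7. No PBS sample reached the lowest sample given the bacterium. Its log2 fold change of 0.72 ± 0.16 (SE) rested on 21 to 54 reads per sample and did not pass (adjusted p = 0.0752). Pld4, an endolysosomal exonuclease gene of dendritic cells and other leukocytes, had 13.2 to 20.4 CPM (median 16.5) with PBS and 19.9 to 30.7 CPM (median 23.1) with the bacterium (0.49 ± 0.11, SE; adjusted p = 0.0752). Zbtb46, the transcription factor gene that marks conventional dendritic cells and also endothelium, had 3.46 to 5.83 CPM with PBS and 3.61 to 5.35 CPM with the bacterium (-0.029 ± 0.14, SE). Siglech had 0.364 to 2.80 CPM with PBS, highest in PBS sample 3, and 0.741 to 1.77 CPM with the bacterium (0.015 ± 0.40, SE). The costimulation genes Cd80 and Cd86 had 0.23 ± 0.19 and 0.32 ± 0.14 (SE).

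The samples differed along the whole list. PBS sample 2 was the highest of the PBS samples in 19 of the 39 genes and lay above the PBS median in 32 of them, while PBS sample 7 was above it in 7 and PBS sample 1 in 9. Every sample given the bacterium lay above the PBS median in 30 to 36 of the 39. Within that group, B. thetaiotaomicron sample 4 was highest in 16 genes and sample 6 in 10, and samples 3 and 5 were each lowest in 11. The summed level of the 39 genes was 1539 to 1893 CPM (median 1729) with PBS and 1777 to 2198 CPM (median 2003) with the bacterium, so the groups overlapped. Much of this sum came from Ctss, Lyz2 and Cst3, with PBS medians of 392, 298 and 183 CPM.

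**Figure D4:**
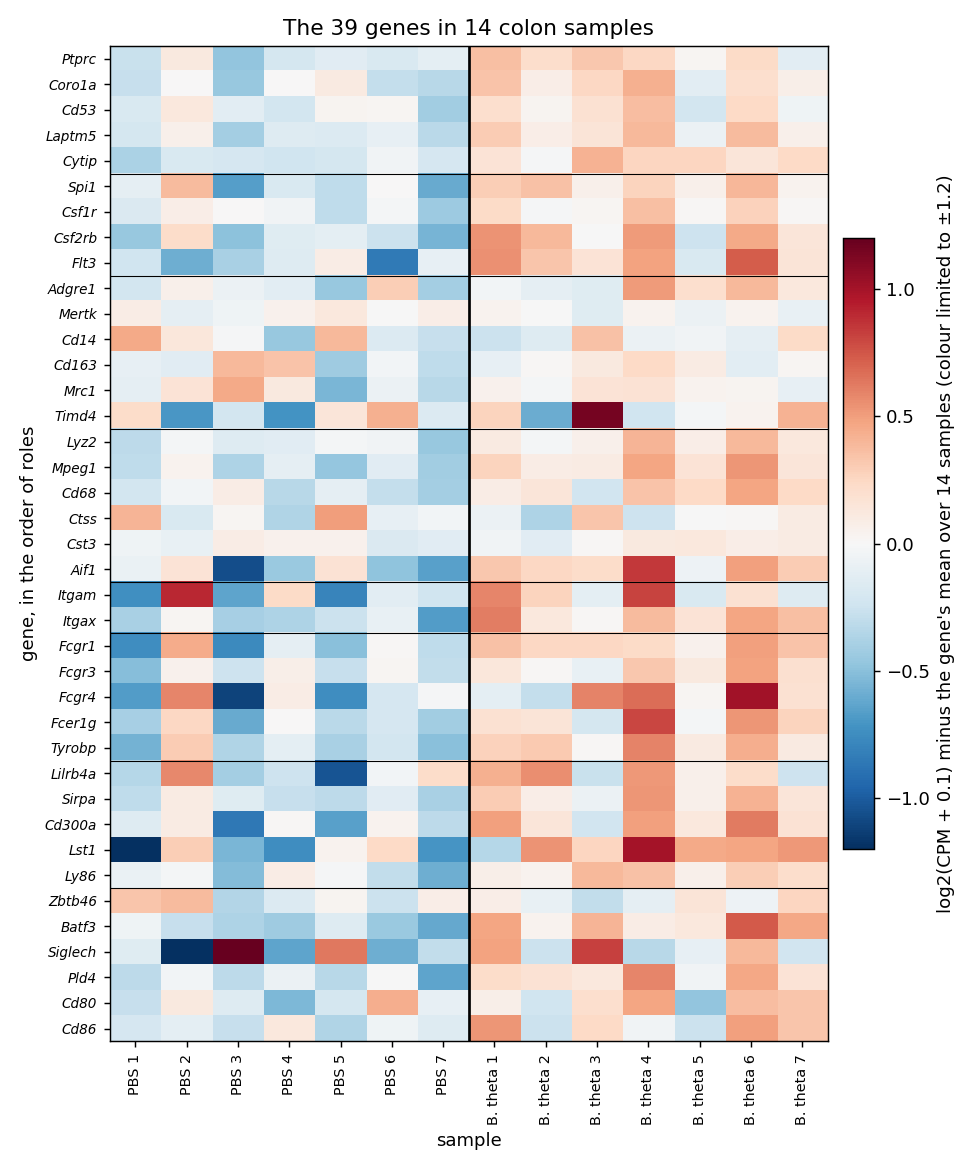
Log2(CPM + 0.1) of each gene minus its mean over the 14 samples, with samples in columns and genes in the order of roles; red is above and blue below the gene's mean. PBS sample 2 is the reddest PBS column, the highest of its group in 19 of 39 genes, and Siglech and Lst1 vary most from sample to sample.

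Levels were also set against Ptprc, a gene of nearly every leukocyte. Ptprc itself had a log2 fold change of 0.36, so a gene without change has a lower ratio after the bacterium. Of the 38 ratios to Ptprc and the 4 ratios between partner genes, 0 passed a two-sided exact permutation test after adjustment over the 42 (smallest adjusted p = 0.147). Mertk had the smallest p (exact permutation p = 0.0035, and 0.00117 to 0.00699 on leaving out each sample). Its log2 ratio to Ptprc was -0.15 ± 0.21 (SD) in the PBS samples and -0.57 ± 0.16 (SD) after the bacterium. The log2 fold change of Mertk alone was -0.053, so most of the difference in this ratio came from Ptprc. Ctss, Zbtb46 and Cst3 had differences of -0.44, -0.38 and -0.29 in their ratio to Ptprc (exact permutation p = 0.0402, 0.0256 and 0.0431, each 0.427 after adjustment). The log2 fold changes of these genes alone were -0.085, -0.029 and 0.077. Itgax had a difference of 0.25 in its ratio (exact permutation p = 0.0705). With Ptprc as a covariate in edgeR, 0 of the other 38 genes and 0 of all genes passed, and the log2 fold changes of Cytip, Mpeg1 and Itgax were 0.40, 0.34 and 0.46. The Ptprc level partly follows the group, with 49.4 to 74.2 CPM with PBS and 62.9 to 88.0 CPM with the bacterium. This fit therefore cannot separate the Ptprc level from the group. Mrc1 and Cd163 relative to Adgre1 had differences of -0.17 and -0.19 (exact permutation p = 0.24 and 0.222).

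Other genes of the lineage were read from lists of neighbours. Of 6 tested growth factor genes, 4 had positive fold changes, 1 was higher at an unadjusted p under 0.05 and 0 passed (DESeq2 called 1 higher). Csf1, the ligand of the Csf1r product, had 0.26 ± 0.072 (SE, adjusted p = 0.125 by edgeR). Of 11 tested monocyte genes, 7 were positive, 4 were higher and 1 lower at an unadjusted p under 0.05, and 0 passed (DESeq2 called 1 higher). Ccr2, the receptor that brings monocytes into tissue, had the smallest p (log2 fold change 0.85, adjusted p = 0.11 by edgeR). Its mean was 22 ± 6.79 CPM (SD) in PBS samples and 39.5 ± 11.9 CPM (SD) after the bacterium. Of 10 tested resident macrophage genes, 7 were positive, 5 were higher at an unadjusted p under 0.05 and 0 passed (DESeq2 called 0). The complement genes C1qa and C1qb had 0.25 ± 0.081 and 0.27 ± 0.09 (SE). Type 1 and type 2 conventional dendritic cell lists had medians of 0.048 and 0.12 with 0 of 10 and 0 of 8 passing. At an unadjusted p under 0.05 they had 2 and 1 higher, led by Wdfy4 at 0.41 ± 0.12 (SE) and Clec10a at 0.36 ± 0.12 (SE). The activated dendritic cell list had a median of -0.051 and 0 of 8 passing, with 2 higher and 1 lower at an unadjusted p under 0.05. Of these 8 genes, 2 were positive and 6 negative. The chemokine gene Ccl22 had 0.58 ± 0.23, Cd40 had 0.35 ± 0.14 and Socs2 had -0.35 ± 0.14 (SE). Of 7 tested plasmacytoid dendritic cell genes, Bst2 rose (0.88 ± 0.15, SE, adjusted p = 0.0378 by edgeR) and is also induced by interferon in other cells. DESeq2 called Bst2 higher and Klk1 lower, and the list's median was -0.097.

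Markers of other cell types were read the same way, since leukocyte genes such as Ptprc, Coro1a and Cd53 are shared with lymphocytes and Itgam and Fcer1g with granulocytes. Of 8 tested neutrophil genes, 6 were positive, 6 were higher at an unadjusted p under 0.05 and 0 passed (DESeq2 called 1 higher). Their median log2 fold change was 1.47 against 0.36 for the 39 genes, but the neutrophil list includes genes near the floor. S100a8 and S100a9 had PBS medians of 0.119 and 0.179 CPM, and log2 fold changes of 2.41 ± 0.74 and 2.45 ± 0.83 (SE). The summed level of all 12 genes of the neutrophil list was 15.3 to 326 CPM with PBS and 55.5 to 223 CPM with the bacterium. Csf3r had 1.78 ± 0.50 (SE), and Elane and Mpo had no count. For eosinophil and mast cell genes 7 of 8 were positive, 4 were higher at an unadjusted p under 0.05 and 0 passed (DESeq2 called 1 higher), with a median of 0.63 and summed levels of 61.8 to 159 and 77.1 to 149 CPM. T and innate lymphoid genes had 12 of 15 positive, 0 passing, a median of 0.25 and summed levels of 107 to 144 and 107 to 134 CPM. B and plasma cell genes had 5 of 12 positive and 7 negative, 4 higher at an unadjusted p under 0.05 and 0 passing (DESeq2 called 3 higher). Their median was -0.23 and their lowest log2 fold change -1.01. Summed levels of this list were 1758 to 2454 and 2036 to 2713 CPM. Most of the sum was Jchain, at 1322 to 2007 CPM with PBS and 1624 to 2252 CPM with the bacterium (0.34 ± 0.10, SE). Epithelial genes had 9 of 12 positive and smooth muscle genes 2 of 8, with 0 passing in either and medians of 0.097 and -0.05. Fibroblast and endothelial genes were negative in 9 of 11, with a median of -0.11, 2 lower at an unadjusted p under 0.05 and 0 passing (DESeq2 called 1 lower); Tie1, an endothelial receptor gene, had -0.31 ± 0.084 (SE; adjusted p = 0.112). Enteric neuron and glia genes were negative in 6 of 9, with a median of -0.12 and 0 passing. The part of these cells in the values of the 39 genes was not tested. The covariates fitted were the Hoxb13 and Hoxd13 level, the smooth muscle level and Ptprc, and no other marker list was used as one. With the Hoxb13 and Hoxd13 level as a covariate Cytip, Mpeg1 and Itgax still passed (adjusted p = 0.0206, 0.0215 and 0.0273), and with the smooth muscle level Sirpa passed as well.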

How the data were processed

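RNA was isolated with a column kit and libraries were made with a SMARTER mRNA kit, per the labels' protocols; the submitters' processing notes name GRCm38 and mm10, while the aligner, counting program and strand setting were not given in the sources used here. The authors deposited raw counts and FPKM per gene; the deposited FPKM equalled count per length and total in all values (relative tolerance 0.001). Samples were grouped by title. The labels state no pairing, so replicate numbers were not used as pairs in the main fit. Only 2 of 7 correlated best with their own number, which does not exclude a pairing. The p-values measure the spread between samples, which may be technical. All library pairs differed beyond sampling noise.

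Counts were tested with edgeR 4.0.16 (TMM scaling, filter at a minimum count of 10, quasi-likelihood F test, robust; R 4.3.3), with Benjamini-Hochberg adjustment over the 14070 genes and a threshold of 0.05. CPM used TMM-scaled library sizes, and SE is that of the log2 fold change. DESeq2 1.42.0 and limma-voom 3.58.1, other scalings and filters, covariates, a replicate block and omitted libraries were alternatives. The scripts were tested on simulated data. Single log2 ratios used two-sided exact permutation tests. Positions are from GENCODE M21 by gene ID.

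The genes and lists were chosen with earlier results of these data known. Full values are given for genes past the threshold and, in each role, for the gene with the smallest p and that with the highest median FPKM; Mertk, Cd163, Mrc1 and Zbtb46 in the plot of CPM by sample, and other genes singled out, were chosen after their values were seen. Read counts were lowest for Siglech, Lst1, Timd4 and Lilrb4a, followed by Batf3 and Cd80.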

Additional observations from a re-analysis of the deposited data

How the results depend on the processing

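The number of the 39 genes called higher was 3. It was 16 with DESeq2, 1 with the replicate block (Mpeg1, adjusted p = 0.0441; Cytip 0.0526 and Itgax 0.0527), 4 with the smooth muscle covariate, and 0 with the Ptprc covariate, without the 4 libraries and without PBS samples 3 and 4 together; leaving out each sample gave 0 to 10. Of all genes, 35 were called: 431 with DESeq2, 15 with the replicate block, 73 with the Hox covariate, 78 with the smooth muscle covariate, 0 with the Ptprc covariate, 0 without the 4 libraries, 0 without PBS samples 3 and 4 together, and 0 to 121 leaving out each sample. The labels state no pairing by replicate number. The median log2 fold change of 0.36 was 0.23 with the Ptprc covariate, which partly follows the group. No setting called a member lower. The cause of these changes was not tested.

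Some directions reversed. Cd14 had 0.019 with the Hox covariate, 0.013 with the Ptprc covariate, 0.12 without the 4 libraries and -0.11 to 0.043 leaving out each sample. Siglech had -0.017 with the smooth muscle covariate and -0.14 to 0.48 leaving out each sample. With the Ptprc covariate Itgam had -0.39, Cd53 -0.0077, Fcgr4 -0.013 and Lilrb4a -0.18, where they had 0.33, 0.22, 0.57 and 0.33 without it. Without the 4 libraries Zbtb46 had 0.018 and Ctss 0.081, and leaving out each sample gave -0.084 to 0.04 and -0.15 to 0.0066. Cd163 had -0.0044 to 0.13, Mrc1 -0.0036 to 0.16 and the Fcgr4 to Fcgr1 ratio -0.053 to 0.12 leaving out each sample. Leaving out each sample for the ratios was chosen after seeing the data. Low counts limit Siglech (5 to 47 reads), Lst1 (7 to 52 reads), Timd4 (9 to 37 reads) and Lilrb4a (16 to 52 reads).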

Other observations

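Other myeloid regulators and cytoskeleton genes had positive log2 fold changes in 18 of 19, with a median of 0.22 and 0 passing the edgeR test (8 higher and 1 lower at an unadjusted p under 0.05; DESeq2 called 3 higher). Fes, a tyrosine kinase gene of myeloid cells, had a mean of 17.6 ± 2.19 CPM with PBS and 22.2 ± 1.12 CPM with the bacterium (SD, n = 7 each; log2 fold change 0.34, adjusted p = 0.0752 by edgeR). Lcp1, which encodes the leukocyte actin-bundling protein plastin, had 0.28 ± 0.078 (SE; adjusted p = 0.12). Of 10 tested Fc receptor and integrin partners, 7 were positive and 0 passed (5 higher at an unadjusted p under 0.05; DESeq2 called 3 higher). Itgb2, which encodes the chain that pairs with the products of Itgax and Itgam, had 26 ± 5.23 CPM with PBS and 36.3 ± 4.52 CPM with the bacterium (SD, n = 7 each; log2 fold change 0.48, adjusted p = 0.0828 by edgeR).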
